A study of Caenorhabditis elegans with 2 samples.

Results

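The 5 genes examined here, egl-9, hif-1, aha-1, vhl-1 and rhy-1, form the core of the hypoxia response of Caenorhabditis elegans. They are 5 of the 19973 nuclear protein-coding genes of the annotation (WBcel235). The set was selected on the signals of earlier analyses of these same peak lists, because strong MDL-1 peaks lay near egl-9 and hif-1, and its other members were added by pathway. All values below are therefore descriptions of the chosen genes, and no test was made on them. A region was assigned to a gene when its summit lay between 5 kb upstream of the gene's most upstream annotated 5' end and the end of the gene.

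The study mapped the DNA occupied by MDL-1 by ChIP-seq (chromatin immunoprecipitation and sequencing) in whole worms at the fourth larval stage (L4), with males and hermaphrodites not separated. The animals were of strain OP355, which carries the unc-119(tm4063) mutation on linkage group III and the integrated transgene wgIs355. There was 1 group of 2 biological replicates and no second genotype, age or treatment. The antibody label and the strain label name MDL-1, whereas a note on both libraries says that the GFP-FLAG tagged protein is KLU-1. The labels give neither the promoter of the transgene nor the cells that express it, so binding in single tissues cannot be told apart. MDL-1, a Mad-like repressor, binds DNA through a helix-loop-helix domain as a pair with MXL-1, and such dimers recognise the E-box CACGTG.

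In this pathway HIF-1 is the oxygen-labile transcription factor and AHA-1, the worm ARNT, is its partner. With oxygen present, the prolyl hydroxylase EGL-9 modifies HIF-1, and the ubiquitin ligase that contains VHL-1 then marks it for degradation. RHY-1, a multipass membrane protein with an acyltransferase domain, acts upstream of EGL-9 to keep HIF-1 activity low. The genes egl-9 and rhy-1 are themselves induced by HIF-1, which gives the pathway a feedback loop. The HIF-1 and AHA-1 dimer recognises elements with the core ACGTG, a sequence that every CACGTG also contains.

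Both the oxygen sensor and its target transcription factor lay beside MDL-1 peaks of the authors' optimal list, and the other 3 members did not. That list, made with a test of reproducibility between replicates, holds 1115 regions, and 1113 of them overlapped a region in each replicate. Its regions are exactly the 1115 of highest signal in the list of both replicates pooled, whatever their ranks in the single replicates. Of these, 4 had summits in the windows of the 5 genes: 1 at egl-9 and 3 at hif-1. Thus 2 of 5 members had an optimal summit, and 7.46% of all protein-coding genes had one in the same kind of window. The windows of egl-9 (13399 bp) and hif-1 (9854 bp) were longer than those of 92.9% and 83.1% of genes, and among genes with a window at least as long as that of hif-1 the share was 12.9%. Since the set was chosen for these peaks, nothing follows from the comparison. With the 1115 strongest regions of replicate 2 in place of the optimal list the count was 4 of 5, as rhy-1 and aha-1 were added, and with those of replicate 1 it was again 2 of 5.

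The sequences under the optimal summits are printed here because they differ in which of the helix-loop-helix sites searched for, if any, they hold. They are given on the plus strand of ce11, read from the RefSeq assembly of the same build, and for both genes this is the coding strand. Capitals mark, on either strand, the E-box CACGTG, its variant CACGCG, the repeat GAGAGA, and the shorter cores ACGTG and GCGTG, which are contained in CACGTG and in the reverse complement of CACGCG. The egl-9 stretch covers 75 bp either side of the summit (chrV:10466657-10466807). The hif-1 stretches cover 50 bp either side of the summits of pooled rank 119 (chrV:20778301-20778401), 687 (chrV:20778516-20778616) and 895 (chrV:20782326-20782426).
egl-9, rank 5: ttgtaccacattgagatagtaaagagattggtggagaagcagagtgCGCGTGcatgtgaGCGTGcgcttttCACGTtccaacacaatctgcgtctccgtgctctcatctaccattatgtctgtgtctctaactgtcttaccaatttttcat
hif-1, rank 119: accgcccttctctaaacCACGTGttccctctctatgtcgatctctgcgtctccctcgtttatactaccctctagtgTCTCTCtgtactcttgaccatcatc
hif-1, rank 687: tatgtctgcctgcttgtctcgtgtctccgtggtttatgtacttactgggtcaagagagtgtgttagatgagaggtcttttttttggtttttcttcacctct
hif-1, rank 895: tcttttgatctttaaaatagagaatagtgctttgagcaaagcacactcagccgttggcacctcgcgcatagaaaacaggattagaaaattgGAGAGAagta

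The egl-9 summit held no CACGTG, although it was the 5th strongest of the pooled list. Within 50 bp of it lay 1 CACGCG, 26.5 bp to the left of the summit, a further GCGTG 14 bp to the left and 1 ACGTG that ended at the summit base. Among all 1115 optimal summits, 10.3% had CACGCG, 24.6% GCGTG, 29.9% ACGTG and 19.2% CACGTG in the same window. The shares over the 28885 weaker regions of the pooled list were 1.59%, 6.26%, 9.44% and 2.96%. The strongest hif-1 summit had 1 CACGTG, centred 30.5 bp to the left, and 1 GAGAGA 28.5 bp to the right. The rank 895 summit in hif-1 had GAGAGA alone, a repeat found at 36.5% of optimal and 7.64% of weaker summits, and the rank 687 summit had none of the 5 sequences. The E-box at hif-1 was 30.5 bp from the pooled summit and 7.5 bp from the summit called in replicate 2. It fell outside 50 bp of the summit called in replicate 1.

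The gene egl-9 (WBGene00001178, chrV:10468517-10476915, plus strand) had 1 dominant peak. It spanned chrV:10466572-10466883 and its summit lay 1785 bp upstream of the most upstream of 5 annotated 5' ends. Its signal, the peak caller's value for a region, was 491 with the replicates pooled, 332 in replicate 1 and 156 in replicate 2. Signal was not taken to be on 1 scale over the lists, so its size was compared only within a list. It ranked 5, 4 and 7 in these lists of 30000 regions each. The rank was thus near the top in each replicate, and the summits of the replicates were 15 bp apart, against a median of 34 bp over the 1113 optimal peaks with an overlapping region in each replicate. Only 6 protein-coding genes had a stronger pooled region in their window, and neighbouring genes can share a region, so this number can exceed the rank.

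No protein-coding 5' end was nearer to this summit than that of egl-9, but annotated noncoding RNA genes were. The summit lay inside F22E12.10 (chrV:10466669-10466813, plus strand) and F22E12.9 (chrV:10466680-10466824, minus strand), which are ncRNA genes of 145 bp each on opposite strands. The 5' end of F22E12.10 was 63 bp from the summit. Of all optimal summits, 125 (11.2%) lay in a gene of the ncRNA class, and 579 (2.0%) of the 28885 weaker summits did. Occupancy at the RNA genes and at an element for egl-9 cannot be told apart from these lists. The region was also narrow, 312 bp in the pooled list, 284 bp in replicate 1 and 227 bp in replicate 2, where the median optimal region had 396 bp and 9.69% were narrower than that.

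Apart from this peak, the egl-9 window held 16 further pooled regions and none of them was optimal. The second strongest had a signal of 37.8 (rank 1784), so that the upstream peak was 13.0 times as high in the pooled list. The same ratio of strongest to second was 10.5 in replicate 1 and 11.1 in replicate 2. The second region lay in an intron, 3962 bp downstream of the first 5' end and 854 bp upstream of the start of isoform c, and ranked 1780 in replicate 1 and 2793 in replicate 2. It held a GAGAGA and 2 GCGTG sequences, overlapping copies of a short repeat, in the stretch chrV:10472429-10472529.
egl-9, rank 1784: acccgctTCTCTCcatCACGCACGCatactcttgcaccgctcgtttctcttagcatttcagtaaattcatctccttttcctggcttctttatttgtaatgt

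A region at the start of egl-9 itself, in a coding exon 56 bp downstream of the first 5' end, had a pooled signal of 30.5 and rank 2797, and overlapping regions ranked 1227 in replicate 1 and 7532 in replicate 2. The replicates thus ranked it far apart. The pooled list is titled as peaks and background, so a candidate need not be a peak. The density of candidates was high: 17 pooled regions gave 1.27 per kb, above 99.8% of genes, whose median was 0.243 per kb. It was above 97% of genes at rhy-1, 96.4% at hif-1, 63.1% at vhl-1 and 28.1% at aha-1. Most egl-9 candidates were weak: apart from the optimal peak their -log10 q-values ran from 0.041 to 1.88, where the maximum was 3.34. Of the 17 regions, 12 overlapped a region of each replicate. Some of the 17 overlapped one another, and the same replicate region could count for neighbours. Those of rank 10818 in replicate 1 and 8862 in replicate 2 counted for the pooled regions of ranks 18055 and 18764. ACGTG lay within 50 bp of 7 of the 17 summits and CACGTG of none. Over all weaker pooled summits the shares were 9.44% and 2.96%, and over all optimal summits 29.9% and 19.2%. The difference from these shares was not tested. The only CACGTG of the window, 3156 bp upstream, was 400.5 bp from the nearest pooled summit. In replicate 1 a weak region of rank 24991, which no pooled summit matched, had its summit 33.5 bp from that E-box.

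**Figure D1:**
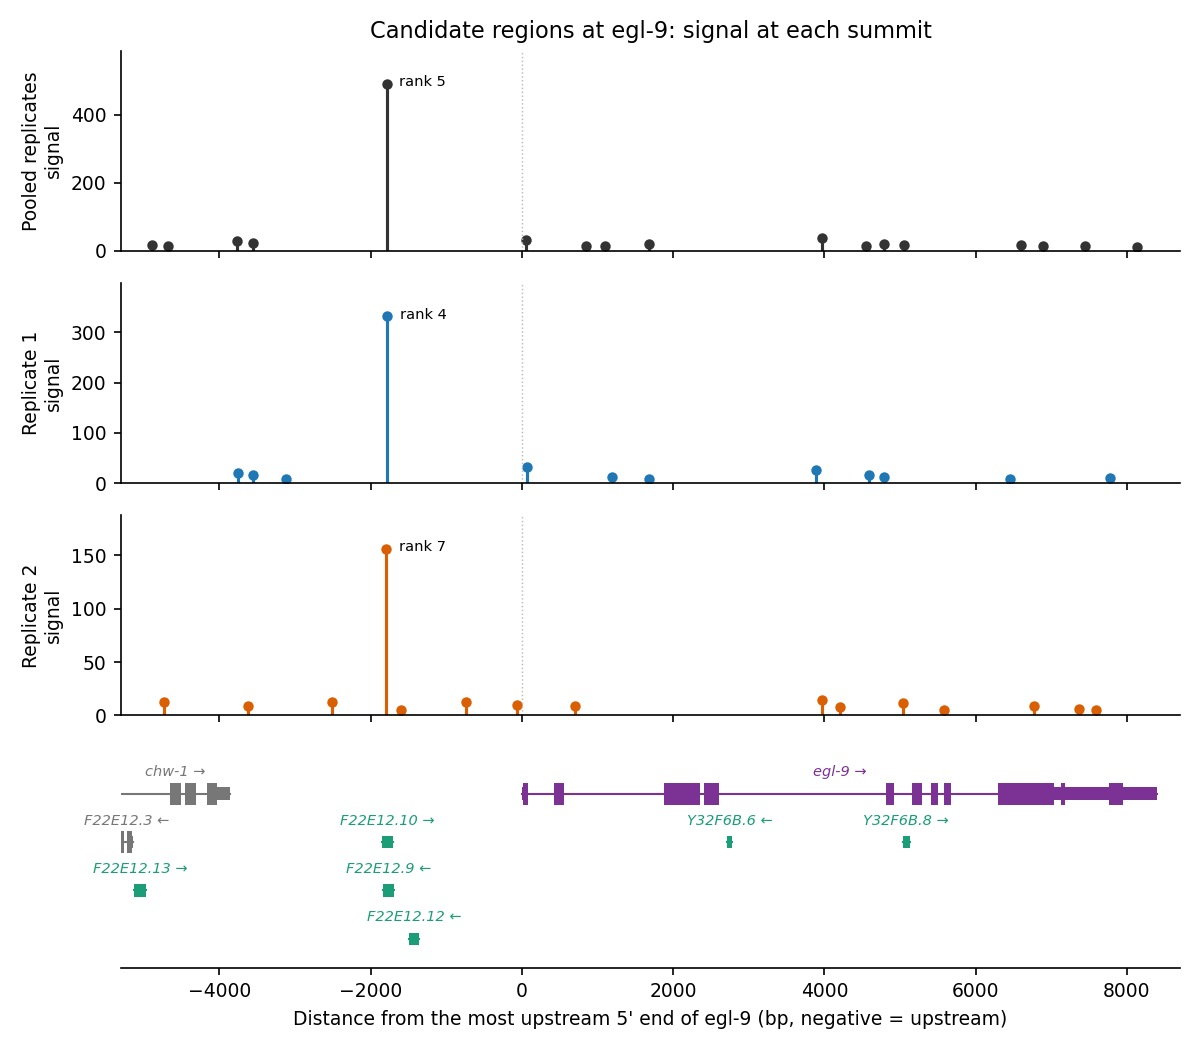
Signal of each candidate region at egl-9 (y axis, own scale in each list) against the distance of its summit from the most upstream 5' end (x axis, bp), for the pooled list and both replicates, with the annotated genes below (egl-9 purple, other protein-coding genes grey, RNA genes green, arrows show the direction relative to egl-9). In each list 1 summit near 1785 bp upstream, over F22E12.10 and F22E12.9, is more than 10 times as high as any other.

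The gene hif-1 (WBGene00001851, chrV:20780407-20785260, plus strand), 10.3 Mb further along the same chromosome, had a cluster of weaker peaks. It had 3 optimal summits, and 0.305% of all genes had at least 3 in their window. Since hif-1 was chosen for these peaks and its window was longer than that of 83.1% of genes, nothing follows from the comparison. The strongest (chrV:20778153-20778548) lay 2056 bp upstream of the first 5' end, with a signal of 154 over both replicates, 109 in replicate 1 and 44.4 in replicate 2. Its ranks were 119, 99 and 209. Regions this strong stood in the windows of few genes, as 99.2% of genes had only weaker pooled regions or none.

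The neighbouring optimal region (chrV:20778368-20778763) overlapped the first by 181 bp, and the summits were 215 bp apart. Its signal was 64.6 with the data pooled, 34.05 in replicate 1 and 27.7 in replicate 2, with ranks of 687, 1061 and 580. Replicate 2 ranked it higher than replicate 1 did, and the order was the other way round for the first peak. Overlapping optimal regions were uncommon, at 58 of 1115 (5.2%). Both upstream summits were intergenic and no other protein-coding gene had a nearer 5' end. Only regions farther than 3 kb upstream, such as that of rank 2131 at 3494 bp, were closer to the 5' ends of F38A6.4 and F38A6.5.

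The other optimal region (chrV:20782178-20782573) lay inside hif-1, in an intron 1969 bp downstream of the first 5' end and 96 bp upstream of the 5' end of isoform c. It was the only optimal summit of the 5 genes within a promoter window of 1000 bp upstream to 200 bp downstream of a 5' end, a window occupied in 3.17% of genes. Pooled, it had a signal of 55.4, with 39.5 in replicate 1 and 19.2 in replicate 2. It ranked 895, 819 and 1288, so that in replicate 2 it fell outside the 1115 strongest. With summits given only to the gene with the nearest 5' end, all 4 optimal summits stayed with egl-9 and hif-1, and 4.49% of genes received a summit in that way. The hif-1 coding exons hold 3 CACGTG sequences between 1513 and 1662 bp downstream of the first 5' end, and none had a pooled summit within 50 bp.

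**Figure D2:**
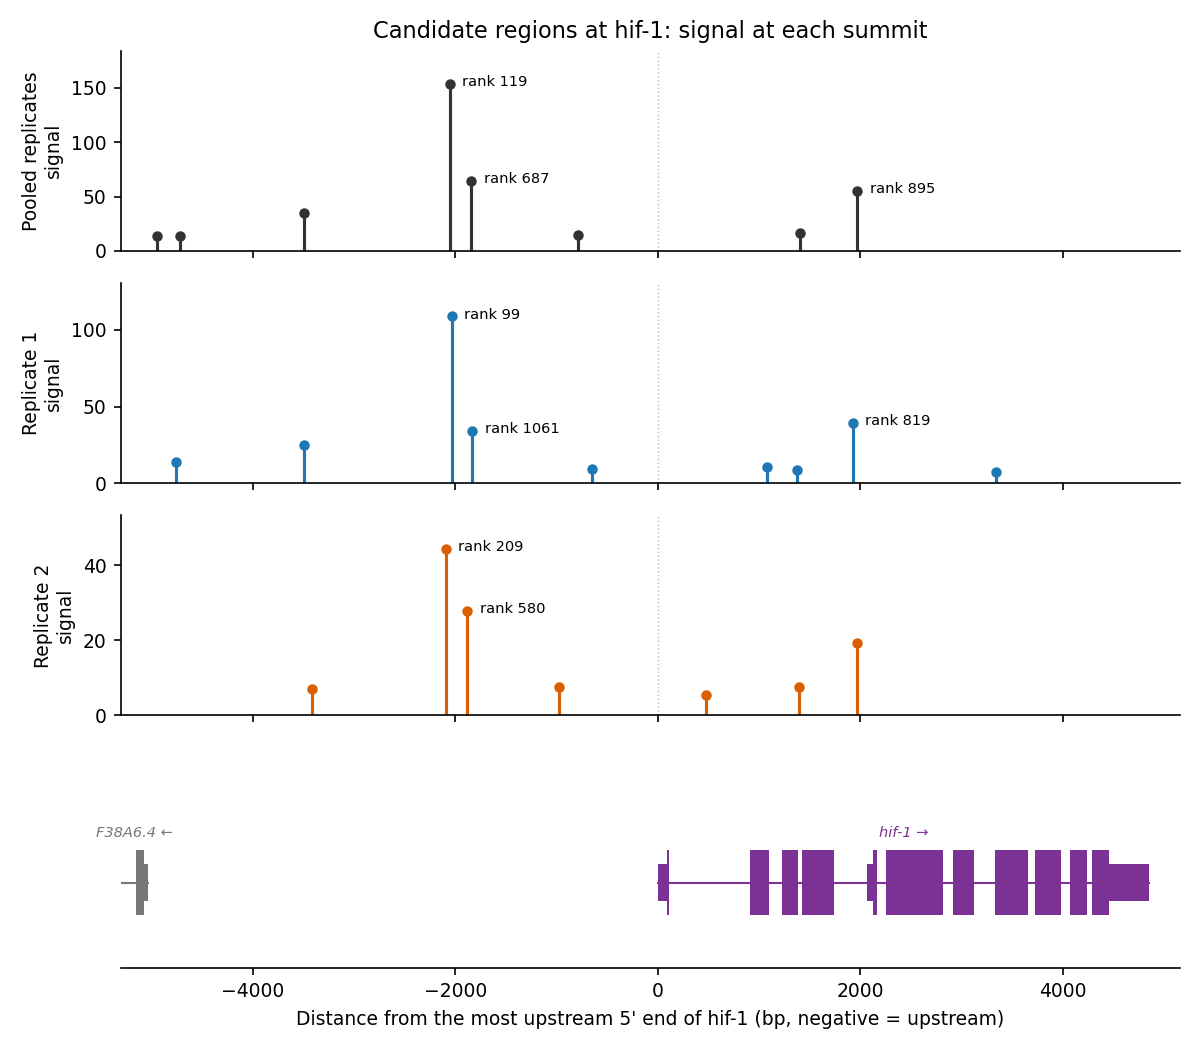
Signal of each candidate region at hif-1 (y axis, own scale in each list) against the distance of its summit from the most upstream 5' end (x axis, bp), for the pooled list and both replicates, with annotated exons below. Neighbouring summits at 2056 and 1841 bp upstream and 1 summit at 1969 bp downstream stand above the other regions in all 3 lists, and the intergenic region at 3494 bp upstream comes closest to them in replicate 1.

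The replicates ranked 3 of the 4 optimal regions of egl-9 and hif-1 within the interquartile range of differences seen over all optimal peaks. The ratio of the rank in replicate 2 to that in replicate 1 was 1.75 at egl-9 and 2.11, 0.547 and 1.57 at hif-1. The quartiles over all 1113 such peaks were 0.669 and 2.16, with a median of 1.15. The hif-1 peak of rank 687 was outside them on the low side and the others were inside. The replicate summits at hif-1 were 61, 50 and 43 bp apart, all below the upper quartile of 67 bp over optimal peaks.

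The gene aha-1 (WBGene00000095, linkage group I, 10193925 to 10196997, minus strand), which encodes the partner of HIF-1, had 1 candidate region in the pooled list, just below the threshold. It ranked 1199 with a signal of 46.4, and the lowest optimal signal was 48.2. The weakest region of the set inside the threshold was that of hif-1 with rank 895 and 55.4. The -log10 q-value of the aha-1 region was 2.90, where 1095 of 1115 optimal regions had the maximum of 3.34. The replicates disagreed on which side it fell, with rank 782 and a signal of 23.7 in replicate 2 and rank 1851 and 25.7 in replicate 1. Its summit was 342 bp upstream of aha-1 but only 18 bp inside the first exon of the divergent gene C25A1.15, so the region can be given to either gene. Within 50 bp it had 2 overlapping GAGAGA sequences and 1 GCGTG, and no CACGTG.

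The gene rhy-1 (WBGene00012324, chrII:9161379-9163448, plus strand) had 6 pooled regions, of which 3 were of nearly equal strength. The first, 1017 bp upstream, had a signal of 33.7 and rank 2264, with overlapping ranks of 2957 in replicate 1 and 2787 in replicate 2. The second, in an intron 190 bp downstream of the 5' end, had 32.2 and rank 2503, with 3044 in replicate 1 and 20035 in replicate 2. The last was at the far end of the gene, 1999 bp downstream, with 33.3 and rank 2331. That one ranked 651 in replicate 2 and 17777 in replicate 1, so that it was within the 1115 strongest of replicate 2 alone.

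This 3' region of rhy-1 is shown because among the pooled regions of the set that were not optimal, it alone held a CACGTG within 50 bp of its summit. The summit lay where the 3' UTR of rhy-1 overlaps that of the convergent gene W07A12.8. The E-box was 21.5 bp to the left of the summit, in the 3' UTR of rhy-1 and outside W07A12.8. Both are in the stretch chrII:9163328-9163428 (plus strand, capitals as above).
rhy-1, rank 2331: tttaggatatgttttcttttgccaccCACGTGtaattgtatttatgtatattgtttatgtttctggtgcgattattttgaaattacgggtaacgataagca

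A second CACGTG, 108 bp upstream of the rhy-1 5' end, was 295.5 bp from the nearest summit. The upstream neighbour oac-54, itself a gene known to be induced by HIF-1, had no pooled region stronger than rank 11149 in its window.

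The gene vhl-1 (WBGene00006922, chrX:11307356-11308518, plus strand) had the weakest regions. Its strongest pooled region ranked 10540 (signal 18.0), in the 3' UTR 1048 bp downstream of the 5' end, and 54.9% of genes had weaker regions or none. Overlapping regions ranked 9587 in replicate 1 and 26236 in replicate 2. The best region of replicate 2, 75 bp upstream of the 5' end, ranked 6787, and replicate 1 had no region there. A candidate region of any rank was common, being present in 76.2% of all gene windows, so these values do not set vhl-1 apart.

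**Figure D3:**
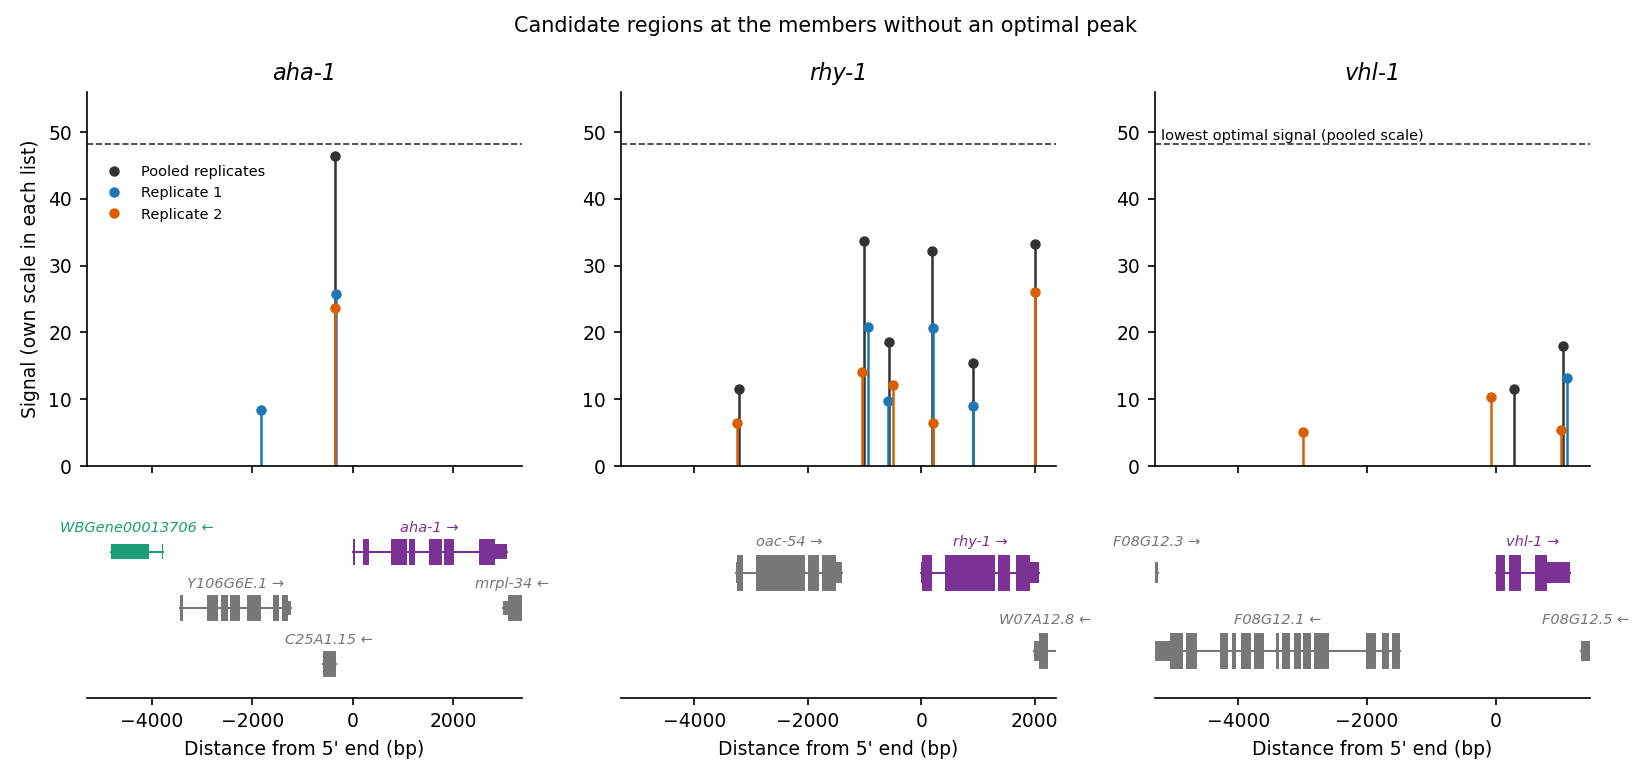
Signal of each candidate region (y axis, as deposited for each list, with heights compared only within a colour) at aha-1, rhy-1 and vhl-1 against the distance of its summit from the 5' end (x axis, bp, genes drawn left to right). The dashed line marks the lowest optimal signal, 48.2 on the pooled scale, and each pooled region stays below it, that of aha-1 by the least.

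The order of the members by their strongest pooled region was egl-9, hif-1, aha-1, rhy-1 and vhl-1. Replicate 1 gave the same order, and replicate 2 placed rhy-1 (rank 651) before aha-1 (rank 782). The order of aha-1 and rhy-1 is thus within the difference between replicates. The places of egl-9 and hif-1 ahead of the others, and of vhl-1 behind them, held in both.

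**Figure D4:**
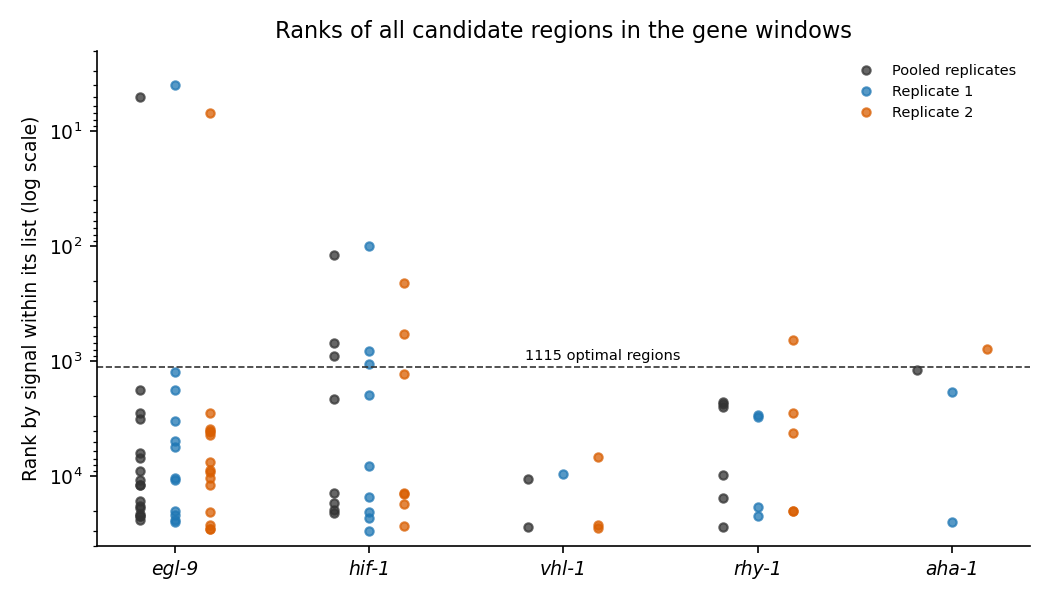
Rank by signal (y axis, log scale, strongest at the top) of every candidate region in the windows of the 5 genes (x axis) in the pooled list and each replicate. The dashed line is rank 1115, the number of optimal regions. Above it lie egl-9 and hif-1 in all 3 lists and rhy-1 and aha-1 in replicate 2 alone.

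**Figure D5:**
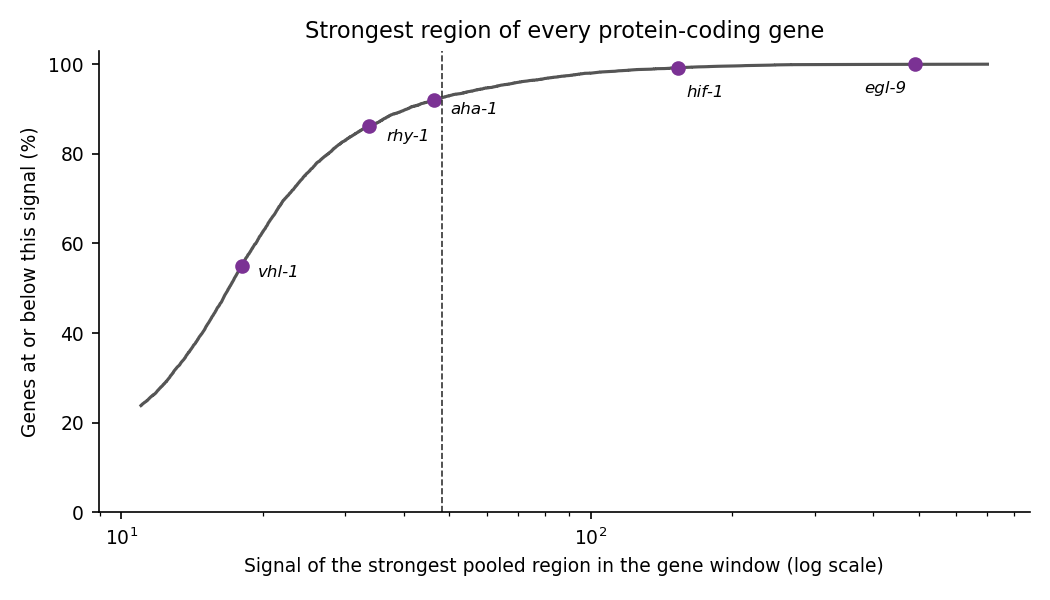
Share of the 19973 protein-coding genes (y axis, %) whose strongest pooled region had at most the given signal (x axis, log scale), with the 5 members marked and the lowest optimal signal of 48.2 as a dashed line. The curve starts above 0 because 4761 genes had no region, and egl-9 lies at its upper end.

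Most E-boxes in the windows had no summit close by. The 5 windows held 10 CACGTG sequences, 4 of them at hif-1, and 2 had a pooled summit within 50 bp, that upstream of hif-1 and that at the end of rhy-1. Over the nuclear genome, 6.43% of 17729 CACGTG sequences had a pooled summit and 1.31% an optimal summit within that distance. Of the 34 pooled regions in the windows, 4 of them optimal, 2 had CACGTG, 5 had GAGAGA and 11 had ACGTG within 50 bp of the summit. Over all optimal summits the shares were 19.2%, 36.5% and 29.9%, and over all weaker summits 2.96%, 7.64% and 9.44%. The difference from these shares was not tested.

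The genes most like egl-9 and hif-1 in the ranks of their strongest region were found among 12744 genes with a region in all 3 lists. For egl-9 they were mtm-3 (ranks 6, 6 and 4 in the pooled, replicate 1 and replicate 2 lists), bcat-1 (7, 7 and 5) and T23F11.6 (4, 2 and 8), at distances of 0.310 to 0.322 on the log10 rank scale. For hif-1 they were xol-1 (120, 98 and 183), H18N23.2 (135, 110 and 210) and daf-2 (111, 97 and 171), at distances of 0.058 to 0.093. These are likenesses of rank over 3 lists, of which the pooled one shares its reads with both replicates. They say nothing of function. Genes with the same strongest pooled region were left out of the comparison.

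Beyond the core, 29 further genes of the hypoxia response were listed by role, and 8 (27.6%) had an optimal summit in the window, beside the 7.46% of all genes. The median rank of the strongest pooled region was 2462.5 for the 26 of them with a region and 8123.5 for all genes with one. In the promoter window the count was 4 of 29, beside 3.17% of all genes. By nearest 5' end it was 5 of 29, beside 4.49%. The lists were chosen with earlier results of these data known and were not matched for window length. Nothing therefore follows from these comparisons. Among other regulators of HIF-1, 2 of 6 had an optimal summit. One was cysl-1, whose protein binds EGL-9 in the response to hydrogen sulfide, with a peak of rank 277 (265 in replicate 1 and 799 in replicate 2) 4247 bp upstream. The other was elc-1, the elongin C of the VHL-1 ligase, with rank 702 (945 and 609) 1692 bp upstream. Other genes, ZC506.1 and Y82E9BR.3, had nearer 5' ends to these summits. The remaining ligase genes cul-2, elb-1 and rbx-1, and swan-1, had no pooled region stronger than rank 2319.

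Of 15 genes known to be induced by HIF-1 in worms or under its control, 4 had an optimal summit. The strongest was at cdo-1, cysteine dioxygenase, with rank 429 (460 in replicate 1 and 627 in replicate 2), 863 bp upstream of its 5' end in the 3' UTR of its neighbour lgl-1. The peak of ldh-1, lactate dehydrogenase, ranked 704 (800 and 932) in an intron 380 bp downstream of its 5' end. The cytochrome P450 gene cyp-36A1 had rank 754 (543 and 2642), also in an intron. The nuclear receptor gene nhr-57, a common reporter of HIF-1 activity, had rank 843 (1229 and 718) 127 bp upstream. Each of cyp-36A1 and nhr-57 was thus outside the 1115 strongest of 1 replicate. The carbonic anhydrase gene cah-4 (rank 1188) lay just below the threshold in the pooled list. The regions that overlapped its summit ranked 1331 in replicate 1 and 7006 in replicate 2. The genes fmo-2 and ftn-1 had no pooled region.

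The 3 other genes of the bHLH-PAS family, to which HIF-1 and AHA-1 belong, had no optimal summit. The pooled ranks were 20161 for cky-1 and 24694 for hlh-34, and ahr-1 had no pooled region. Among 5 genes listed around hypoxia responses that run beside HIF-1, nhr-49 and mdt-15 had an optimal summit. The HNF4-like receptor gene nhr-49 ranked 316 (415 and 302) 353 bp upstream. The Mediator subunit gene mdt-15, whose protein works with NHR-49, ranked 322 (339 and 257) 4624 bp upstream, where W04D12.1 was nearer. None of the strongest summits at the 8 list genes with an optimal summit had a CACGTG within 50 bp. Only 19.2% of all optimal summits had one, so its absence does not set these 8 apart.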

How the data were processed

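MDL-1 ChIP-seq of whole L4 worms gave peak lists for 2 biological replicates and for both pooled. Per the labels and the deposited text files, the candidate lists were made as input for the irreproducible discovery rate (IDR) test. The optimal list was derived from the 3 candidate lists. The pooled candidate list is titled as peaks and background. Which aligner, peak caller, versions and IDR limit were applied is not given in the sources used here. The signal and the -log10 q-value of each region are the authors' deposited values. Signal is on its own scale in each list, so regions were compared by rank. Read depth is unknown, and no interval or floor was computed. The ce10 lists and control libraries were not used here.

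The ce11 lists were set against the Ensembl release 115 annotation and the RefSeq sequence, both WBcel235, within whose chromosome lengths the regions and genes fitted. Summits were taken from the deposited offsets. Overlap of regions needed 1 bp, and the replicate region with the nearest summit was taken. Distances to motifs run to their centre, with both strands searched 50 bp either side. Feature classes were coding exon, UTR, intron, then intergenic, over protein-coding genes. Named genes were the 5 members, list genes with an optimal summit, genes and RNA genes nearer to a member's optimal summit, and for egl-9 and hif-1 the 3 genes of nearest log10 ranks. Other list genes, neighbours of weaker regions and neighbours of list peaks were named after their values were seen. The CACGTG count over whole windows, the share among long windows and the comparisons of replicate ranks were also added then. The members and the 4 lists were chosen with earlier results of these data known. With 1 group of 2 replicates no test was made. Sequence on linkage group I is not shown. The code returned all planted genes and motifs on simulated data. Python 3.11.15, numpy 2.4.6, pandas 2.3.3 and matplotlib 3.10.9 were used.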

Additional observations from a re-analysis of the deposited data

How the results depend on the processing

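Of 57 alternative values, 39 were counted as the same and 18 as moved, by limits of 1.5 times the count or the difference between replicates. With 1 replicate left out, a rank is that of the other replicate, so the replicate difference says little about it. The limits were also uneven for ranks. At rhy-1, 651 counted as the same as 2264, and at hif-1, 209 counted as moved from 119. The share of all genes with an optimal summit was 4.94% with 2 kb upstream, 11.4% with 10 kb, 3.8% with the 557 strongest optimal peaks, 3.17% in the promoter window and 4.49% by nearest 5' end. The 557 strongest peaks left 2 optimal summits at the members, both genes kept, and 4 list genes. The promoter window left 1 member (hif-1), 1 summit and 4 list genes, and the nearest 5' end left 5 list genes. With 1 replicate left out, the members with a summit numbered 2 to 4, and the summits with a CACGTG 0 to 1. With 25 bp either side there was 0. The strongest hif-1 region ranked 687 with 2 kb upstream and 99 to 209 with 1 replicate left out. That of vhl-1 ranked 454 with 10 kb upstream and 6787 to 9587 with 1 replicate left out. The cause of these differences was not tested. No paired analysis was possible because there was only 1 group. The unknown depth, and control libraries that were not used here, limit all statements to ranks within these lists.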

Other observations

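With the window extended to 10 kb, vhl-1 gained 1 optimal region (chrX:11299674-11300069, signal 80.9, rank 454, 576 in replicate 1 and 445 in replicate 2). Its summit was 7484 bp upstream of vhl-1 but 88 bp upstream of snrp-40.1, and it had no CACGTG within 50 bp.

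Base composition differed between strong and weak summits. From 50 bp left to 50 bp right of the egl-9 summit, 52.5% of bases were G or C, and those of hif-1 were 49.5%, 42.6% and 39.6% in order of signal. The medians were 48.5% over all optimal and 32.7% over the weaker summits. The part of base composition in these signals was not tested.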
